A study of Mus musculus with 14 samples.

Results

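The genes described here encode the protein skeleton that lies under the red cell membrane. They were chosen by name from a list of 9, namely Sptb, Ank1, Epb41, Epb42, Dmtn, Add1, Add2, Tmod1 and Mpp1. Every probe set (a group of short probes read as 1 value) that the platform annotation gave to one of these symbols was used. This gave 16 probe sets for 8 genes, out of 22626 probe sets and 12393 genes in all. Epb41, the gene of protein 4.1R, had no probe set by this rule and is not analysed here.

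The skeleton is a net of long spectrin tetramers whose ends meet at short actin filaments, the junctions of the net. Ankyrin ties spectrin to the band 3 anion exchanger in the membrane, and protein 4.1R, adducin, dematin and p55 hold the junctions and bind them to membrane proteins. Inherited faults in spectrin, ankyrin, band 3 or their partners cause fragile, rounded or elliptical red cells. KLF1 is a zinc finger transcription factor that activates many red cell genes through CACCC-type DNA motifs, and KLF2 is a related factor that embryonic red cells also use.

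RNA came from primitive erythroid precursors of FVB/N mouse yolk sacs at embryonic day 9.5. The cells were cut out of 8 µm frozen sections by laser capture microdissection, which collects cells seen under the microscope. There were 8 wild-type samples, 3 KLF1-/- samples and 3 KLF1-/- KLF2-/- samples, each on its own array. The mothers were KLF1+/- or carried KLF1+/- and KLF2+/- together, embryos were genotyped from tail tissue, and no sample was treated. A replicate was a pool of 2 to 4 yolk sacs taken from 2 litters, and the labels used here do not describe the mutant alleles. Sample titles run from 1 to 8 (wild type 1 to 4 and KLF1-/- 5, 6 and 8) and from 9 to 15 (wild type 9 to 12 and KLF1-/- KLF2-/- 13 to 15). Each mutant genotype therefore falls in 1 number run, and the labels do not call the runs batches.

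Array medians lay between 6.55 and 6.66 log2 units, and the interquartile range of an array, from 2.31 to 3.12, was widest in KLF1-/- replicate 6. Klf1 itself read 10.05 to 11.82 in wild type, 9.03 to 9.79 in KLF1-/- and 8.56 to 9.59 in KLF1-/- KLF2-/-. The labels used here do not place its probe set relative to the deleted part, so this is no check of the genotypes. Of 12 erythroid markers 11 were measured, 10 of them above the median of all probe sets over the 14 arrays, and their mean log2 level was 10.6 ± 0.36 (SD, n = 8), 10.3 ± 0.16 (n = 3) and 10.4 ± 0.40 (n = 3) in the order of genotypes above. That list holds Klf1 itself and Slc4a1. Without both, the other 9 markers read 10.4 ± 0.34, 10.3 ± 0.13 and 10.4 ± 0.35. Markers of other yolk sac cells were present too: all 11 measured visceral endoderm markers, all 8 mesenchyme markers, 7 of 11 endothelial, 6 of 9 megakaryocyte and 5 of 10 macrophage markers were above that median. The megakaryocyte list read higher on the mutant arrays, at 6.71 to 7.08 on wild-type arrays, 7.13 to 7.26 in KLF1-/- and 7.32 to 7.65 in KLF1-/- KLF2-/-. In the step between the mutant genotypes, genotype and number run cannot be told apart. The macrophage list read 6.42 to 6.88, 6.50 to 6.65 and 6.96 to 7.01 in the same order. The visceral endoderm list read 10.5 to 12.2, 11.2 to 11.8 and 11.2 to 11.3, the mesenchyme list 9.53 to 10.5, 9.67 to 10.6 and 10.1 to 10.5, and the endothelial list 6.67 to 6.99, 6.77 to 7.14 and 6.85 to 6.96. The part of these other cells in the results that follow was not tested.

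Promoters are shown for 4 members because KLF1 binds DNA at a known motif. Their mutant means, on the brightest probe sets and with all wild-type arrays pooled, lay on different sides of wild type. By unadjusted confidence intervals only Add2 was told apart from wild type, and Add1, Tmod1 and Epb42 were not. Within number runs the sign turned for Epb42 in KLF1-/- and for Add1 in KLF1-/- KLF2-/-. The matches thus give no contrast between lower and higher members. A difference between these genes was not tested. RefSeq (assembly GRCm38.p6) gave promoters for 7 of the 9 genes. The source used here held none for Dmtn and Ank1. Those of Sptb, Epb41 and Mpp1 were searched but are not printed. Each line holds the 250 bases before the transcription start, 5′ to 3′ on the gene's strand. Capitals mark matches, on either strand, to 2 motifs, and overlapping matches run together. One is CCNCNCCC, the CACCC-type motif of the factors related to KLF1. The other is AGATAA, the motif of the zinc finger family that includes the main erythroid regulator.
Add2 (chr6:86028431-86028680, plus strand): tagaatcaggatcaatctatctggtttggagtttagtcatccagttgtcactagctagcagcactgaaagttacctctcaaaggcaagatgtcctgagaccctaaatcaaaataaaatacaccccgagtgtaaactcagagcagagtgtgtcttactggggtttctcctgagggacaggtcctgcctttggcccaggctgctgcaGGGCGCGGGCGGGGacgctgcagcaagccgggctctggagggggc
Add1 (chr5:34573414-34573663, plus strand): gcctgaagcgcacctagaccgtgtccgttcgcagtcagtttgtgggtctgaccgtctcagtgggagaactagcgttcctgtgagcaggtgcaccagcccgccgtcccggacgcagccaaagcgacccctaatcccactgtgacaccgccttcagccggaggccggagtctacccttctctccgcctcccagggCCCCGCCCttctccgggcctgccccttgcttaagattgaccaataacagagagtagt
Tmod1 (chr4:46038972-46039221, plus strand): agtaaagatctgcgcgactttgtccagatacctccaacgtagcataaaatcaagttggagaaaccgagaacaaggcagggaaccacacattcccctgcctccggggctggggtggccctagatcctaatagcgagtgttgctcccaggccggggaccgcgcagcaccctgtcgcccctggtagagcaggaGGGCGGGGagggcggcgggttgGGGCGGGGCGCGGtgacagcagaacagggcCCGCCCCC
Epb42 (chr2:121036878-121037127, minus strand): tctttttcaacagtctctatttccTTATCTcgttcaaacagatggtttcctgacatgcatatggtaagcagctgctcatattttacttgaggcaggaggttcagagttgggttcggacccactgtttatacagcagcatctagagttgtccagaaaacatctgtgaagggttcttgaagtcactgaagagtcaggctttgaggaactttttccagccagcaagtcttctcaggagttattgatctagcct

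The Add2 promoter held 2 CACCC-type matches, which overlap and begin 45 and 39 bases before the start. The Add1 promoter held 1, and that of Tmod1 held 4. The Epb42 promoter held none, but had 1 match to the other motif on the opposite strand. Of the promoters not printed, Sptb held 3 CACCC-type matches, among them CCACCCCC. The Mpp1 promoter held none, and the 3 starts of Epb41 held 3, 0 and 6. Of 32851 promoter windows of the same length, 45.9% held the CACCC-type motif and 9.99% held the other one. The matches in Add2, Add1 and Tmod1 read CCGCGCCC, CCCCGCCC or CCGCCCCC, so none holds the letters CACCC itself. Matches to CCNCNCCC were thus found beside Add2, with lower mutant means, and beside Add1 and Tmod1, whose differences were not told apart from 0. A match is a description of letters, not of binding.

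The first question was how the skeleton genes compared between each mutant genotype and wild type. Dmtn, which encodes the actin-bundling protein dematin, stood lowest against wild type, 2.17-fold lower in KLF1-/- and 2.22-fold lower in KLF1-/- KLF2-/-. Add2, the gene of beta-adducin, was the other member with every mutant array below every wild-type array, by a much smaller step. The 2 brighter Ank1 probe sets had lower means in both genotypes, while Sptb, Epb42, Add1, Tmod1 and Mpp1 differed from wild type by less than 0.30 log2 units in either direction on their brightest probe sets, with all 8 wild-type arrays as the reference. In the limma fit across all 22626 probe sets, with Benjamini-Hochberg adjustment over all of them and a threshold of 0.05, no member probe set passed in any comparison. The plots of values by array and of differences from wild type show this pattern.

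**Figure D1:**
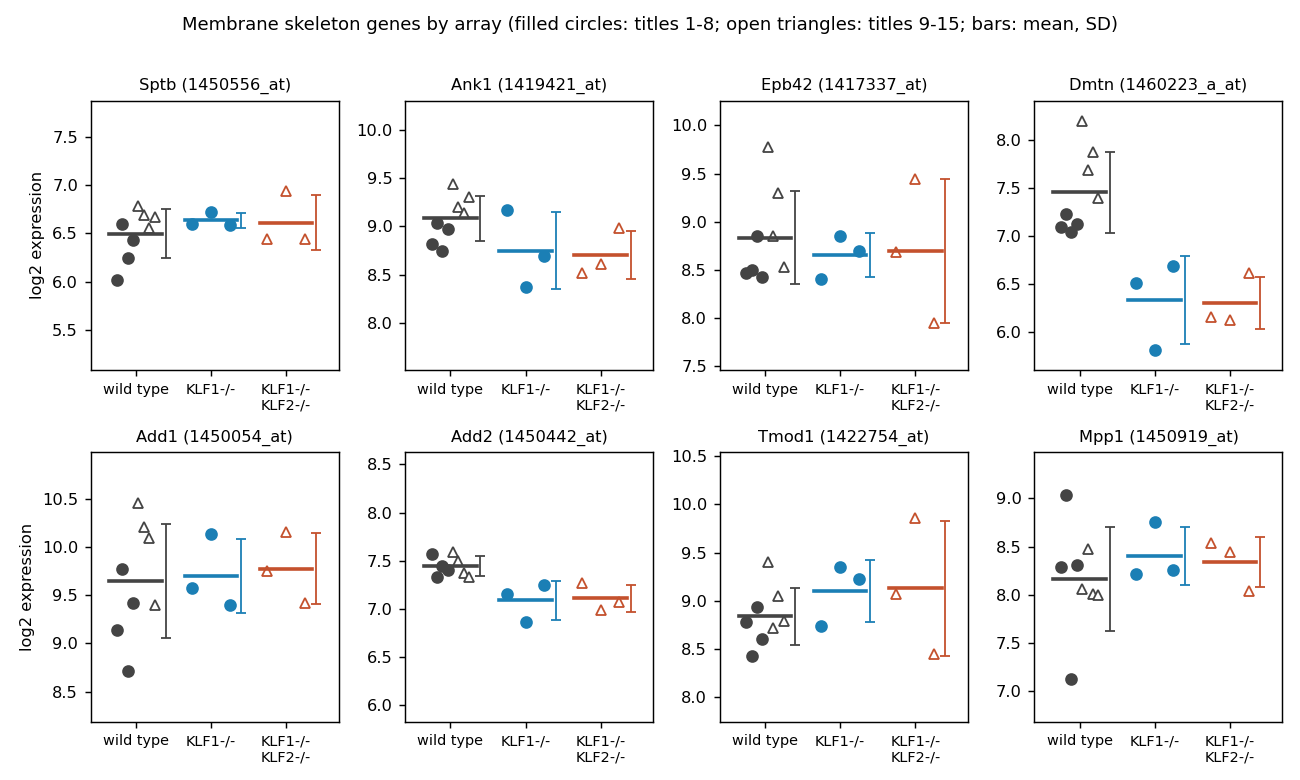
Log2 expression of the brightest probe set of each of the 8 genes, 1 point per array, grouped by genotype on the x axis; filled circles are titles 1 to 8, open triangles titles 9 to 15, and bars give the mean and SD. For Dmtn the 6 mutant arrays lie between 5.82 and 6.68 and the 8 wild-type arrays between 7.04 and 8.19, whereas the genotypes overlap in Sptb, Epb42, Add1, Tmod1 and Mpp1.

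**Figure D2:**
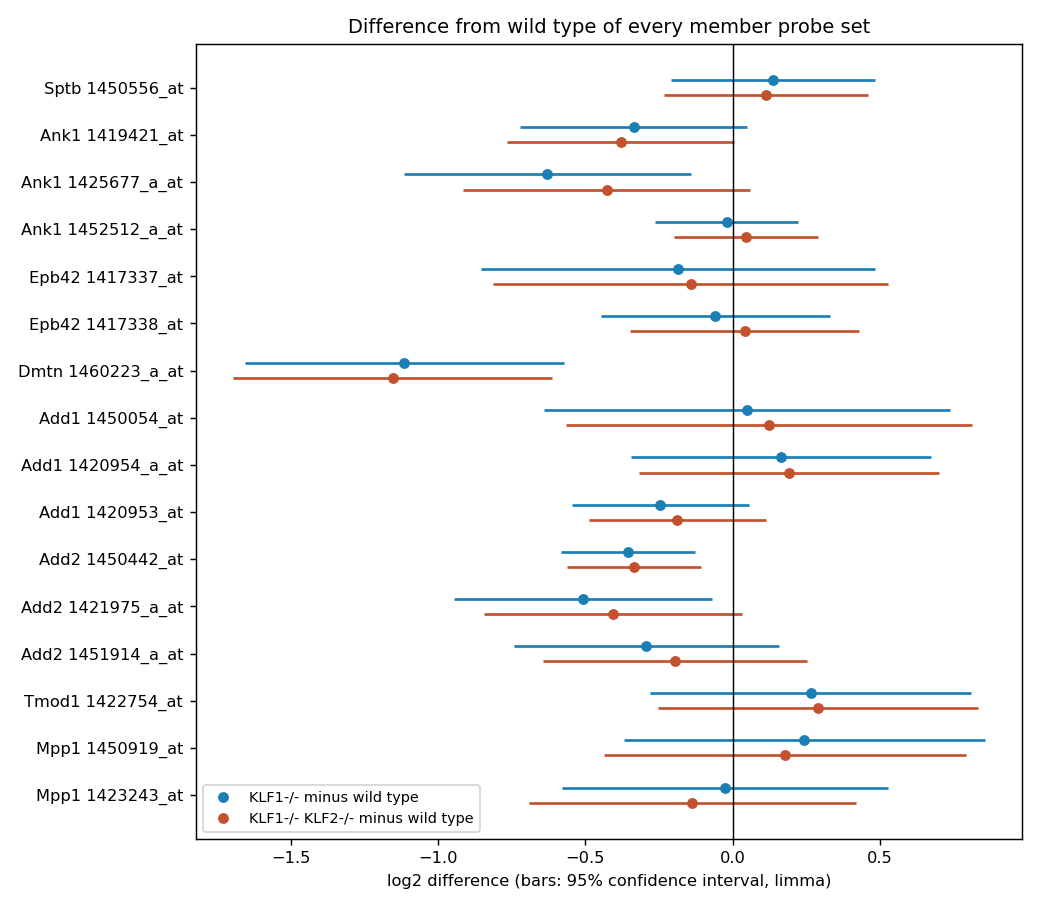
Log2 difference from wild type of all 16 probe sets, for KLF1-/- (blue) and KLF1-/- KLF2-/- (orange); points are limma estimates and bars their 95% confidence intervals, on the x axis in log2 units. Dmtn has the lowest estimates, -1.11 and -1.15, and the intervals of every Sptb, Epb42, Add1, Tmod1 and Mpp1 probe set include 0.

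The counts of members called were 0 of 16 in each comparison. For all probe sets the share called was 0.0265% (6 probe sets) for KLF1-/- against wild type, 0.0221% (5) for KLF1-/- KLF2-/- against wild type and 0.0707% (16) for the mean of both mutant groups against wild type. Between the 2 mutant genotypes 0% was called, with 142 probe sets at an unadjusted p under 0.05. At an unadjusted p under 0.05, 4 of 16 member probe sets were lower in KLF1-/-, where 0.738% of all probe sets were. They were those of Dmtn, 2 of Add2 and 1 of Ank1. In KLF1-/- KLF2-/- 2 of 16 were lower (Dmtn and Add2), where 0.636% of all were. With both genotypes averaged 5 of 16 were lower (Dmtn, 2 of Add2 and 2 of Ank1), where 0.888% of all were. Probe sets of 1 gene share a transcript, so these counts rest on 3 genes. No member was higher at that level in these comparisons. All of these comparisons share the 8 wild-type arrays. The members were chosen with earlier results of these data known, so the counts are a description and not a test.

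These counts depend on which wild-type arrays served as the reference. With the number run added to the fit as a block, each mutant genotype was set against only the 4 wild-type arrays of its own run. Lower member probe sets at an unadjusted p under 0.05 then numbered 2 of 16 in KLF1-/- (Dmtn and Add2), where 1.32% of all were. They numbered 5 of 16 in KLF1-/- KLF2-/- (Dmtn, 2 of Add2 and 2 of Ank1), where 0.632% of all were, so the order of the genotypes turned. The average again had 5 of 16, where 0.955% of all were. After adjustment Dmtn alone passed, in KLF1-/- KLF2-/- and in the average, where 0.0265% and 0.0884% of all probe sets did, and 0 of 16 passed in KLF1-/-, where 0.00884% did.

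Taking the brightest probe set of each gene, 4 of 8 genes had means below wild type in each mutant genotype. The median difference of the 8 genes was -0.07 in KLF1-/- and -0.01 in KLF1-/- KLF2-/-, and that of all probe sets was 0.006 and 0.005. Over all 16 member probe sets the median was -0.12 (11 below 0) and -0.14 (9 below 0). In the block fit it was 0.03 (7 below 0) and -0.27 (13 below 0), and that of all probe sets -0.009 and 0.017. The member medians thus moved with the choice of probe sets and of wild-type arrays. Over all arrays the spread was set by Dmtn at the low end and by Tmod1 at the high end. Because these are bulk samples, fewer cells of a type and less RNA per cell cannot be told apart.

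Spectrin forms the strands of the net. Sptb, the gene of its beta chain, read 6.02 at the lowest, 6.57 at the median and 6.79 at the highest of the 8 wild-type arrays (log2 expression). It read 6.60, 6.72 and 6.59 on the KLF1-/- arrays and 6.44, 6.94 and 6.45 on the KLF1-/- KLF2-/- arrays. The genotypes overlapped, and 1 mutant array, KLF1-/- KLF2-/- replicate 14, lay above all wild-type arrays. The log2 difference with both mutant genotypes averaged was 0.13 (SE 0.128, 95% confidence interval -0.15 to 0.40). Within number runs the Sptb difference was 0.31 in KLF1-/- and -0.06 in KLF1-/- KLF2-/-. This only Sptb probe set averaged 6.55 over all arrays, just below the median of all probe sets (6.62).

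Ankyrin links the net to band 3, and 3 probe sets measured its red cell gene, Ank1. On probe set 1419421_at the wild-type arrays read 8.75 at the lowest, 9.09 at the median and 9.44 at the highest. KLF1-/- arrays read 9.17, 8.37 and 8.70, and KLF1-/- KLF2-/- arrays 8.52, 8.61 and 8.98. Of the 6 mutant arrays 4 lay below every wild-type array, while KLF1-/- replicate 5 and KLF1-/- KLF2-/- replicate 15 lay inside the wild-type range. The difference was -0.34 in KLF1-/- (SE 0.180, interval -0.72 to 0.05) and -0.38 in KLF1-/- KLF2-/- (SE 0.180, interval -0.77 to 0.00). The adjusted p from limma was 1.00 in both. The near-equal values rest on pooling the runs, since the later wild-type arrays averaged 9.27 and the earlier ones 8.89. Within runs the difference was -0.15 (interval -0.53 to 0.23) and -0.57 (interval -0.95 to -0.19).

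A second Ank1 probe set, 1425677_a_at, read 5.84 to 7.05 in wild type with a median of 6.74. It read 6.06, 5.67 and 6.13 in KLF1-/- and 6.01, 6.27 and 6.18 in KLF1-/- KLF2-/-. The wild-type arrays themselves split here, with replicates 1 and 2 at 6.06 and 5.84 and the other 6 at 6.50 or more, so that the mutant arrays overlapped only those 2. The difference was -0.63 (interval -1.12 to -0.14) and -0.43 (interval -0.91 to 0.06). Within number runs it was -0.46 and -0.59, so the order of the genotypes turned. The remaining probe set, 1452512_a_at, was dim, with a wild-type mean of 4.54 ± 0.18, and differed by -0.02 and 0.05.

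Epb42 encodes protein 4.2, which binds ankyrin and band 3. Its brighter probe set, 1417337_at, read 8.42 at the lowest, 8.69 at the median and 9.77 at the highest wild-type array, 8.40, 8.86 and 8.69 in KLF1-/-, and 8.69, 9.44 and 7.95 in KLF1-/- KLF2-/-. The double mutant arrays spanned nearly the whole range of all samples, with an SD of 0.75 against 0.48 in wild type. The difference was -0.18 (interval -0.85 to 0.48) and -0.14 (interval -0.81 to 0.53). Within number runs it was 0.09 and -0.42, so the sign in KLF1-/- turned. On 1417338_at the difference was -0.06 and 0.04, with the genotypes fully mixed.

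At the junctions of the net, Dmtn was measured by 1 probe set, 1460223_a_at. Wild-type arrays 1 to 4 read 7.09, 7.22, 7.04 and 7.13, and wild-type arrays 9 to 12 read 8.19, 7.68, 7.87 and 7.40. KLF1-/- arrays read 6.51, 5.82 and 6.68, and KLF1-/- KLF2-/- arrays 6.16, 6.13 and 6.61. All 6 mutant arrays lay below all 8 wild-type arrays, and the later wild-type arrays lay above all earlier ones. Group means were 7.45 ± 0.42 (SD, n = 8), 6.34 ± 0.46 (n = 3) and 6.30 ± 0.27 (n = 3).

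The Dmtn difference was -1.11 in KLF1-/- (SE 0.252, interval -1.66 to -0.57), a level 2.17-fold lower (1.49 to 3.15). It was -1.15 in KLF1-/- KLF2-/- (SE 0.252, interval -1.69 to -0.61), a level 2.22-fold lower (1.53 to 3.24). The adjusted p from limma was 0.542 and 0.388. Averaged over both mutant genotypes it was -1.13 (SE 0.201, interval -1.57 to -0.70), with a limma adjusted p of 0.0657 and an unadjusted p of 6.1e-05, which ranked 21 of 22626. Only 2 member probe sets, this one and 1 of Add2, had all mutant arrays below all wild-type arrays. That held in 0.106% of all probe sets for both genotypes together, in 0.23% for KLF1-/- and in 0.305% for KLF1-/- KLF2-/-, where the members were the same 2.

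Within number runs the Dmtn values came apart. With the block the difference became -0.78 in KLF1-/- (interval -1.25 to -0.31, limma adjusted p = 1.00) and -1.49 in KLF1-/- KLF2-/- (interval -1.96 to -1.01, limma adjusted p = 0.0455), so the latter passed the threshold. The average of both stayed at -1.13 and also passed (limma adjusted p = 0.0110). Wild-type arrays 9 to 12 lay wholly above arrays 1 to 4 in 2 member probe sets, of Dmtn and Ank1 (1419421_at), and in 1.12% of all probe sets. What else the runs differ by is not stated in the labels.

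Leaving out 1 array at a time moved the limma adjusted p of the averaged Dmtn difference between 0.0529 and 0.253. Without KLF1-/- replicate 6, the array with the widest interquartile range and the lowest Dmtn value, the Dmtn difference in KLF1-/- was -0.86. The other alternatives and the intervals they gave are drawn for Dmtn and Add2 together.

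**Figure D3:**
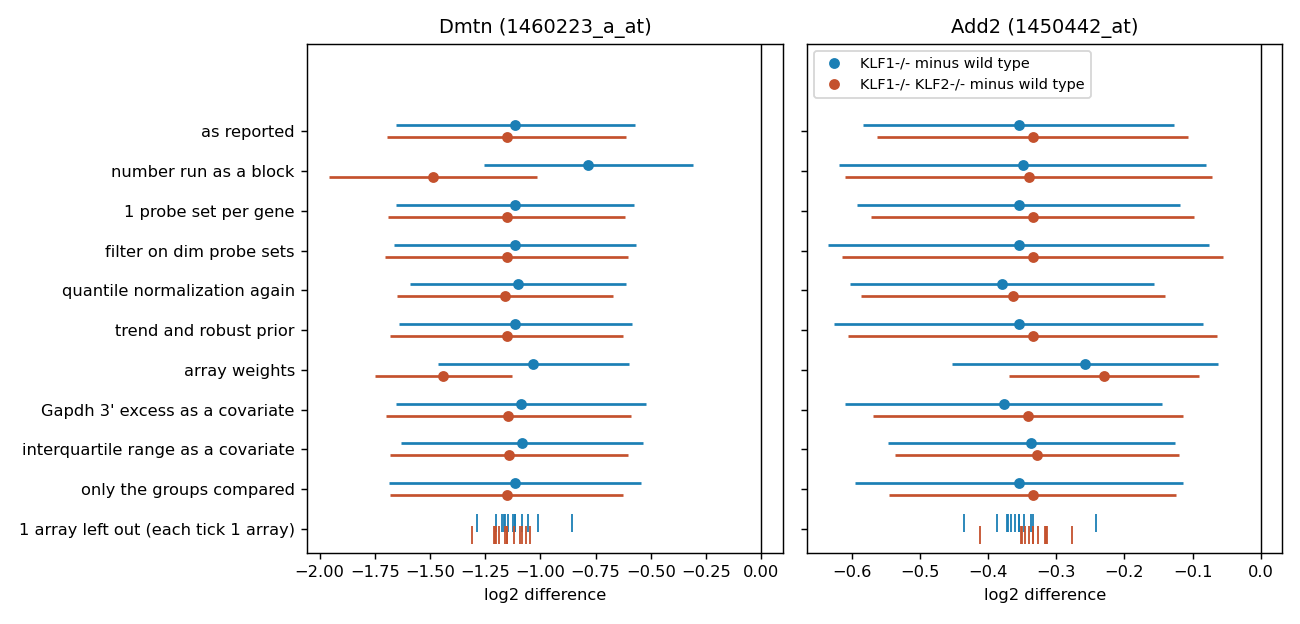
Log2 difference from wild type of Dmtn (left) and Add2 (right) for KLF1-/- (blue) and KLF1-/- KLF2-/- (orange) under each processing alternative, with 95% confidence intervals; ticks in the lowest line are fits without 1 array. Dmtn moves from -1.11 to -0.78 in KLF1-/- and from -1.15 to -1.49 in KLF1-/- KLF2-/- with the number run as a block, and all estimates lie below 0.

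Adducin caps the actin ends at the junction as a pair of alpha and beta chains. Add2, the beta chain gene, read 7.33 at the lowest, 7.42 at the median and 7.59 at the highest wild-type array on probe set 1450442_at. KLF1-/- arrays read 7.15, 6.86 and 7.25, and KLF1-/- KLF2-/- arrays 7.26, 6.99 and 7.07. No mutant array reached the wild-type range, although the gap between the highest mutant and the lowest wild-type array was narrow. The wild-type SD of 0.10 was the smallest of the 16 member probe sets.

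The Add2 difference on that probe set was -0.36 in KLF1-/- (SE 0.106, interval -0.58 to -0.13, unadjusted p = 0.00488), a level 1.28-fold lower. In KLF1-/- KLF2-/- it was -0.33 (SE 0.106, interval -0.56 to -0.11, unadjusted p = 0.00717), a level 1.26-fold lower. Adjusted over all probe sets by limma, p was 1.00 in both and 0.404 for the average of -0.35 (SE 0.085). Unlike that of Dmtn, the difference on this probe set kept its size within number runs, at -0.35 in KLF1-/- and -0.34 in KLF1-/- KLF2-/-. The 2 further Add2 probe sets had lower means as well, -0.51 and -0.41 on 1421975_a_at and -0.29 and -0.20 on 1451914_a_at, with overlapping arrays. On 1421975_a_at the earlier wild-type arrays averaged 6.59 and the later ones 6.88, against 6.23 in KLF1-/- and 6.33 in KLF1-/- KLF2-/-. Its difference within runs was thus smaller in KLF1-/- and larger in KLF1-/- KLF2-/-, a shift in the direction that Dmtn took. On 1451914_a_at both wild-type runs averaged 6.35.

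Add1 encodes alpha-adducin, the partner chain. Its brightest probe set, 1450054_at, read 8.71 at the lowest, 9.60 at the median and 10.46 at the highest wild-type array. It read 9.57, 10.13 and 9.40 in KLF1-/- and 9.75, 10.16 and 9.42 in KLF1-/- KLF2-/-, so all 6 mutant arrays lay inside the wild-type range. The difference was 0.05 (interval -0.64 to 0.74) and 0.12 (interval -0.56 to 0.81), wide enough to hold the Add2 values. The later wild-type arrays averaged 10.04 and the earlier ones 9.26, and within runs the difference was 0.44 (interval -0.20 to 1.07) and -0.27 (interval -0.90 to 0.37), so the sign in KLF1-/- KLF2-/- turned. The other probe sets gave 0.16 and 0.19 (1420954_a_at) and -0.25 and -0.19 (1420953_at, a dim one at 5.28 ± 0.23 in wild type). Add3, the gene of the more widely used gamma chain, read 6.86 ± 0.35, 7.16 ± 0.88 and 6.99 ± 0.37, with an averaged difference of 0.22 (interval -0.30 to 0.74).

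Tropomodulin caps the pointed ends of the junctional actin filaments. Tmod1 read 8.43 at the lowest, 8.79 at the median and 9.40 at the highest wild-type array, 8.73, 9.35 and 9.22 in KLF1-/-, and 9.07, 9.86 and 8.45 in KLF1-/- KLF2-/-. Of the 6 mutant arrays only KLF1-/- KLF2-/- replicate 14 lay above the wild-type range. The difference was 0.26 (interval -0.28 to 0.81) and 0.29 (interval -0.25 to 0.83), the highest among the members and not beyond the spread of the arrays. Within number runs it was 0.42 and 0.14.

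Mpp1 encodes p55, a scaffold that joins protein 4.1R to glycophorin C. On probe set 1450919_at wild-type arrays ran from 7.13 over a median of 8.17 to 9.04, the KLF1-/- arrays read 8.21, 8.75 and 8.25, and the KLF1-/- KLF2-/- arrays 8.54, 8.44 and 8.04. Every mutant value lay inside the wild-type range. The difference was 0.24 (interval -0.37 to 0.86) and 0.18 (interval -0.44 to 0.79). The dimmer probe set 1423243_at gave -0.03 and -0.14.

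The second question was whether losing KLF2 as well as KLF1 added to the change. Between KLF1-/- KLF2-/- and KLF1-/- the 16 probe sets differed by -0.11 to 0.20, when all arrays were pooled by genotype. At an unadjusted p under 0.05 none was lower, where 0.243% of all probe sets were, and none was higher. For Dmtn the difference was -0.04 (interval -0.69 to 0.61), for Add2 (1450442_at) 0.02 (interval -0.25 to 0.30) and for Ank1 (1419421_at) -0.04 (interval -0.51 to 0.42). The Dmtn interval holds changes of over 0.6 log2 units in either direction, so with 3 arrays a genotype such changes remained possible. With the number run as a block the Dmtn difference was -0.70 (interval -1.37 to -0.04, unadjusted p = 0.0404, limma adjusted p = 1.00). It was the only member probe set at an unadjusted p under 0.05 there, where 0.544% of all probe sets were lower. In the same fit Add1 (1450054_at) moved to -0.70 (interval -1.60 to 0.19) and Ank1 (1419421_at) to -0.42 (interval -0.96 to 0.12), and 14 of 16 probe sets were below 0, against 5 of 16 without the block. The median of the 16 was -0.18 in place of 0.03. These estimates set the mutant genotypes against each other through the gap between earlier and later wild-type arrays.

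The proteins that the skeleton holds on to in the membrane were described from the 11 measured genes of a list. That list was chosen with earlier results of these data known. Icam4, an adhesion protein of the band 3 and Rh complexes, fell in KLF1-/- by 1.69 (SE 0.258, limma adjusted p = 0.0477) and was the only one of the 11 to pass. Its means were 8.33 ± 0.46, 6.64 ± 0.43 and 6.70 ± 0.08. In KLF1-/- KLF2-/- the Icam4 difference was -1.63 (limma adjusted p = 0.0586), and the average of both passed at -1.66 (limma adjusted p = 0.00554). Within number runs the KLF1-/- value was -1.58 and no longer passed (limma adjusted p = 0.257). The KLF1-/- KLF2-/- value was -1.75 there (limma adjusted p = 0.0907), and the average of -1.66 still passed (limma adjusted p = 0.00597).

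Slc4a1, the gene of band 3 itself, read 12.25 ± 0.47, 11.33 ± 0.30 and 11.37 ± 0.69 on its brightest probe set. It averaged -0.90 (interval -1.42 to -0.38, limma adjusted p = 0.572), with -0.99 on another probe set and 0.09 on a dimmer one. Rhd, the gene of an Rh protein of the same membrane complex, averaged -0.76 (limma adjusted p = 0.715). Rhag, the ammonia channel at the core of that complex, averaged 0.27 (interval -0.37 to 0.91), and Gypc, which encodes glycophorin C, 0.37 (interval -0.22 to 0.97). Within number runs Rhag was 0.70 in KLF1-/- and -0.15 in KLF1-/- KLF2-/-, and Gypc 0.80 and -0.05. Slc4a1, on its brightest probe set, and Rhd stayed below 0 in both. The averaged differences of the genes that hold the net to the membrane thus varied widely, as those of the skeleton genes did. Of the 11 genes 8 had an averaged difference below 0, and the median was -0.10, against 0.005 over all genes.

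Other parts of the junction and actin regulators were described from the 12 measured genes of a list. This list was chosen with earlier results of these data known, so a gene passing is a description only. Plek2, an actin-regulating protein of red cell precursors, fell in KLF1-/- by 1.46 (SE 0.213, limma adjusted p = 0.0367). Its means were 8.34 ± 0.40, 6.89 ± 0.08 and 7.47 ± 0.25. In KLF1-/- KLF2-/- the Plek2 difference was -0.87 (limma adjusted p = 0.590). The average of both genotypes passed too, at -1.16 (limma adjusted p = 0.0216). Within number runs the values were -1.19 in KLF1-/- (limma adjusted p = 0.142) and -1.14 in KLF1-/- KLF2-/- (0.0907), neither of which passed, and the difference between the genotypes shrank from 0.58 to 0.05. Of the 12 genes 10 had an averaged difference above 0, with a median of 0.20, among them the actins, tropomyosins, capping proteins and Add3, none of which passed. Those genes are also used by most other cells, and the part of other cells in these estimates was not tested. Of 23 relatives of the members that other cells mostly use, 21 were measured and 0 passed in limma, with 1 higher and 0 lower at an unadjusted p under 0.05 in the average.

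**Figure D4:**
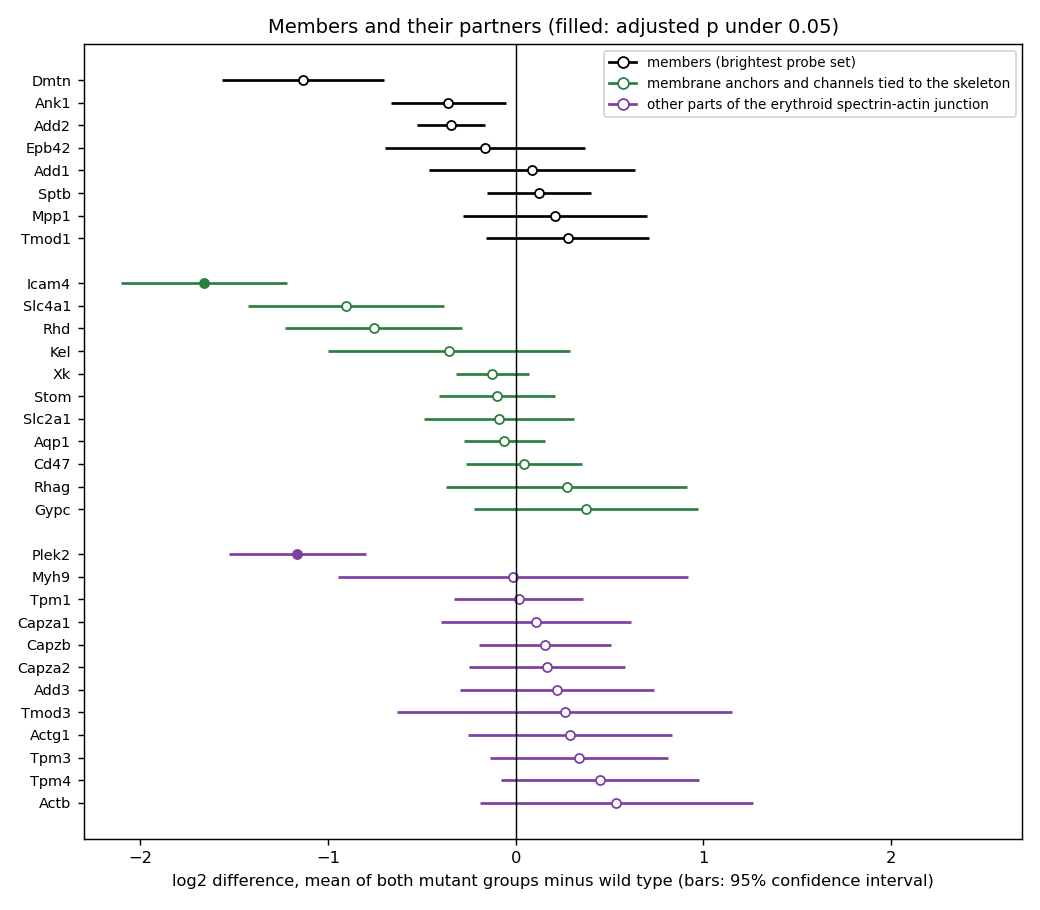
Log2 difference of the mean of both mutant genotypes from wild type, with 95% confidence intervals. Black marks the 8 members, green 11 membrane anchors and channels, and purple 12 other junction or actin-regulating genes. Each is shown by its brightest probe set, and filled points have an adjusted p under 0.05. Icam4 at -1.66 and Plek2 at -1.16 are filled, and Dmtn at -1.13 is the lowest member.

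Across the 14 arrays the members did not follow one pattern. Over the 28 pairs of brightest probe sets Pearson's r ran from -0.43 (Sptb and Add2) to 0.84 (Ank1 and Dmtn), with a median of 0.16. Dmtn also followed Add2 (r = 0.83) but not Sptb (r = -0.04) or Tmod1 (r = -0.26). Probe sets of the same gene were hardly closer, with a median r of 0.19 over 11 pairs and a range from -0.31 to 0.71. All these points share arrays and include the genotype difference, so r is given as a description only.

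The 5 genes most like Dmtn over the 14 arrays were Ermap (r = 0.93, Spearman's rho 0.93), Hdac11 (r = 0.92, rho 0.93), Kcnn4 (r = 0.91, rho 0.85), Icam4 (r = 0.91, rho 0.86) and Pklr (r = 0.90, rho 0.85). Ermap is an erythroid membrane protein, Hdac11 a histone deacetylase, Kcnn4 the calcium-gated potassium channel of red cells, and Pklr the red cell form of pyruvate kinase. Their log2 differences in KLF1-/- and KLF1-/- KLF2-/- were -2.22 and -2.06 for Ermap, -0.76 and -0.83 for Hdac11, -1.90 and -1.80 for Kcnn4, and -1.30 and -1.41 for Pklr. These genes were picked for following Dmtn, which split mutant from wild-type arrays. Lower mutant values in them were therefore largely set by the choice.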

How the data were processed

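The deposited values are log2 expression, 1 per probe set and array, of Affymetrix mouse arrays, made by the authors with RMA (GCOS, affy and limma are also named), per the submitters' processing notes. RMA normalizes between arrays and compresses differences of weak signals. Versions are not given in the sources used here. Of 22690 rows, 64 controls were left out. The annotation gave 20380 probe sets 1 gene, 691 several and 1555 none. Groups came from sample titles. One limma model (version 3.58.1, R 4.3.3, lmFit and eBayes, two-sided) with 1 mean for each genotype took in all 14 arrays and 22626 probe sets, with Benjamini-Hochberg adjustment over all and a threshold of 0.05. Intervals are 95% and unadjusted. Tables used Python 3.11.15, pandas 2.3.3, numpy 2.4.6, scipy 1.17.1 and matplotlib 3.10.9; limma drew on statmod 1.5.0. The fit was tested on simulated data.

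Named were all member probe sets, list genes passing in any comparison, the direct partners Slc4a1, Gypc, Rhag and Add3, Klf1, and the 5 genes most correlated with the member of smallest p. Rhd was added after its values were seen. Members and lists were chosen with earlier results of these data known. Alternatives were the number run as a block, 1 probe set per gene, a filter on dim probe sets (mean above 6.62), quantile normalization again, a trended robust prior, array weights (gene-by-gene method), Gapdh 3′ excess or interquartile range as a covariate, only the groups compared, and each array left out. The number of arrays limits the precision.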

Additional observations from a re-analysis of the deposited data

Results flagged for a closer look

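Of the 16 member probe sets, 2 had 1 wild-type array far from the other 7 by Dixon's criterion at the 95% level (critical ratio 0.526 for 8 arrays), where chance gives about 1 in 20 groups. Epb42 (1417338_at) read 6.61 in wild-type replicate 2, and the nearest array read 7.07 (ratio 0.551). Without that array the averaged mutant difference of this Epb42 probe set was -0.09 in place of -0.01. Add1 (1420953_at) read 5.77 in wild-type replicate 11, and the nearest array read 5.38 (ratio 0.532). Without it the averaged difference of this Add1 probe set was -0.15 in place of -0.22. Neither probe set passed the threshold with or without the array. The mutant genotypes, with 3 arrays each, were not tested by this criterion.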

How the results depend on the processing

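No member probe set was called in any comparison as reported, nor in any of the 14 fits that left out 1 array (range 0 to 0). For the average of both mutant genotypes, 1 was called, Dmtn, with the number run as a block, with 1 probe set per gene, with the filter on dim probe sets, with quantile normalization again, with a trended robust prior and with the interquartile range as a covariate. Array weights called 2, Dmtn and Add2 (1421975_a_at). With the Gapdh covariate 0 were called, and Dmtn had a limma adjusted p of 0.110. For KLF1-/- KLF2-/- against wild type, 1 was called with the block (Dmtn) and 4 with array weights (Dmtn, 2 of Ank1 and 1 of Add2); no alternative called a member in KLF1-/- against wild type or between the mutant genotypes. The cause was not tested. Array weights raised the calls over all probe sets from 5 to 627 in KLF1-/- KLF2-/-, from 6 to 16 in KLF1-/- and from 16 to 102 in the average. For KLF1-/- the block called 2 and Gapdh 4. For KLF1-/- KLF2-/- the calls were 8 with 1 probe set per gene or the dim filter, 9 with quantile normalization, 10 with the robust prior and 21 with the interquartile range. For the average, 1 probe set per gene called 16 of 12393 and the dim filter 22 of 11313. Both adjusted over fewer probe sets than the fit as reported, with 8 and 9 member probe sets tested. Over all 22626 the block and the robust prior each called 20, Gapdh 13, quantile normalization 31 and the interquartile range 47. All these fits share the same arrays. Between the mutant genotypes 0 to 4 were called, the most with array weights. Leaving out 1 array gave 2 to 7 calls for KLF1-/-, 1 to 7 for KLF1-/- KLF2-/-, 6 to 25 for the average (25 without wild-type replicate 9) and 0 to 1 between the mutant genotypes. The sign of a member's estimate turned in 26 of 353 alternative values for KLF1-/-, in 15 of 353 for KLF1-/- KLF2-/-, in 26 of 337 for the average and in 50 of 353 between the mutant genotypes, none of them called, and never for Dmtn, Add2 or the 2 brighter Ank1 probe sets against wild type. No paired analysis was possible because the genotypes share no replicate numbers. Signal over background limits the dim probe sets of Ank1, Add1 and Mpp1. The dim filter also left out the Sptb probe set, Ank1 1425677_a_at, and Add2 1421975_a_at and 1451914_a_at.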
